A study of Mus musculus with 12 samples.

Results

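The 9 genes described here carry out the breakdown of heme and the clearance of its product, bilirubin. They are Cd163 and Lrp1, Hmox1, Blvra and Blvrb, Slco1b2, Ugt1a1, Abcc2 and Abcc3. Each was found by its symbol as 1 row in the gene list of each stage, so the group comprised 9 of the 31053 genes listed for the embryonic stage (E16.5) and 9 of the 22597 listed for the newborn stage (P3). The data are droplet-based single-cell RNA sequencing of whole liver, in which each RNA molecule captured from a cell is counted by its unique molecular identifier (UMI). Levels are given as counts per 1000000 UMIs of the same cell class and library (CPM).

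Heme released from worn-out red cells and from expelled erythroid nuclei is taken up mainly by macrophages. Hemoglobin bound to haptoglobin enters through the receptor Cd163, and heme bound to hemopexin enters through Lrp1. Heme oxygenase 1, the product of Hmox1, opens the heme ring to give biliverdin, iron and carbon monoxide, and biliverdin reductases reduce biliverdin to bilirubin. Blvra encodes the reductase of the bilirubin isomer that predominates in adults, and Blvrb encodes the reductase of the isomer typical of fetal life, which is also a flavin reductase of red cells. Hepatocytes take up bilirubin from blood with the help of the transporter Slco1b2 and conjugate it to glucuronic acid through Ugt1a1. The conjugate leaves across the canalicular membrane into bile through Abcc2, or back into blood through Abcc3. Before birth the placenta removes unconjugated bilirubin, and after birth the liver takes over.

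The livers came from embryos at E16.5 and pups at P3 born to Jag1Ndr/+ parents, and were labelled Jag1+/+, Jag1Ndr/+ or Jag1Ndr/Ndr, with 2 replicates for each of 6 groups. Jag1 encodes a ligand of Notch receptors that is needed for bile ducts to form, and Ndr is the Nodder missense allele. The labels name no other allele and no drug treatment in any group. According to the protocols in the labels, jaundice marked the homozygous pups to be collected and dead cells were depleted. TrypLE was used to dissociate the E16.5 livers but not those of P3, so that stage and digestion cannot be told apart. The matrix headers also name software version 3.1.0 at E16.5 and 3.0.2 at P3, and the gene lists differ in length. Stage therefore cannot be told apart from software version and gene list either.

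The 12 matrices did not hold 12 libraries. Replicate 2 of Jag1+/+ and replicate 2 of Jag1Ndr/+ at E16.5 had the same barcodes and counts throughout, so 5 libraries of this stage were used and this one is called the shared library. Among the P3 matrices, 6 pairs had 53.4% to 100% of the smaller matrix's barcodes in common, and 4 libraries were kept. Library A was the matrix labelled Jag1+/+ replicate 1 and library B the matrix labelled Jag1+/+ replicate 2, and barcodes of both also appeared under other genotypes, so their genotype is unclear. Library C held the barcodes of the matrix labelled Jag1Ndr/Ndr replicate 1 that library A lacked, and library D was labelled Jag1Ndr/+. Of the 35072 barcodes of that Jag1Ndr/Ndr matrix, 19927 also occurred in library A, under the Jag1+/+ label. The label of library C is therefore uncertain too. Between 15024 and 29034 barcodes per library passed the filters of at least 1000 UMIs and at most 15% mitochondrial UMIs, with median UMI counts of 2961 to 9256.

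Cells of each stage were clustered without the 9 genes, and clusters were named from marker genes. Hepatocyte-like cells numbered 680 at E16.5 (89 to 223 per library) and 761 at P3 (70 to 379), and macrophage-like cells numbered 775 (118 to 195) and 2492 (392 to 912). The summed hepatocyte markers reached 142171 to 193387 CPM in hepatocyte-like cells at E16.5 and 100940.0 to 172107 CPM at P3. The summed macrophage markers reached 14885 to 17185 CPM in macrophage-like cells at E16.5 and 31483 to 38422 CPM at P3. Erythroid-like cells were the most numerous class, with 64392 and 29886 cells. The erythroid-like class differed in make-up between the stages. Of its cells at P3, 11.7% (3499 cells) were in a globin-poor cluster whose leading genes included C1qtnf12 and Vamp5, whereas the E16.5 cluster with these leading genes (1306 cells) was named progenitor-like and lies outside the class. Comparisons of erythroid-like cells were therefore also made with the E16.5 cluster added to the class and with the P3 cluster left out of it. No cluster was named cholangiocyte-like, so the bile duct epithelium was not described. The mesenchymal-like cluster of P3 was led by pancreatic hormone genes. Clusters of hepatocyte-like, macrophage-like or neutrophil-like cells (the last at E16.5, 1360 cells) in which over 40% of UMIs came from globin genes were set apart, a rule settled after globin levels had been seen. At E16.5 this set apart 3954 hepatocyte-like and 3999 macrophage-like cells, more than the 680 and 775 kept in these classes. At P3 only macrophage-like cells (1657) were set apart. Cells set apart did not enter the comparisons of these classes, except where the text says that they were kept.

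In the GENCODE M21 annotation of GRCm38, all 9 are protein-coding genes. Cd163 lies on chromosome 6 from 124304656 to 124330527 and Slco1b2 on the same chromosome from 141629518 to 141686646, both on the plus strand. Lrp1 is on the minus strand of chromosome 10 from 127538161 to 127621148, and Abcc3 on the minus strand of chromosome 11 from 94343295 to 94392997. Hmox1 (chromosome 8, 75093621 to 75100589), Blvra (chromosome 2, 127070665 to 127097084) and Blvrb (chromosome 7, 27447978 to 27466144) are on the plus strand. Abcc2 also lies on the plus strand, on chromosome 19 from 43782192 to 43840740. Ugt1a1, on the plus strand of chromosome 1 from 88211959 to 88218997, shares 1311 of its 2224 exonic bases (58.9%) with the 8 other Ugt1a genes. In addition, 41.5% of its exonic bases overlap Gm20528 on the opposite strand. How the authors' counting split such reads is not given in the sources used here, so the counts of Ugt1a1 are uncertain. No exon of the other 8 genes overlapped an exon of another annotated gene.

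Promoter windows of 250 bases before the annotated start were available for 7 of the 9 genes in a RefSeq table of GRCm38.p6, and that of Blvra is shown because it holds a match and the RNA of this gene differed between the stages in the most classes. The motifs reported, each searched on both strands, are TGACNNNGC, the core of the antioxidant response element, and the erythroid GATA motif AGATAA. The capitals mark the match, which lies on the opposite strand. The window holds no annotated UTR, and is at chr2:127070407-127070656 on the plus strand, written 5′ to 3′.
Blvra: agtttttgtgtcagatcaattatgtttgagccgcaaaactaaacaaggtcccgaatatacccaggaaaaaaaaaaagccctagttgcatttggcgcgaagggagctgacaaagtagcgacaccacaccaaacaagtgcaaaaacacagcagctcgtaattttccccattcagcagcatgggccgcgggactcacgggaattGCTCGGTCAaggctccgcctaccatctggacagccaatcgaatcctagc
TGACNNNGC was found in the windows of Blvra, Abcc2 and Lrp1, at 49, 98 and 160 bases before the start, and in 10.2% of 32851 windows of the same length. AGATAA, present in 9.99% of windows, was in none of the windows of the 7 genes. A match describes the letters of a window and does not show that a factor binds there.

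The levels separated the genes by cell class. Hmox1, Cd163, Lrp1 and Abcc3 each had their highest mean in macrophage-like cells at both stages, Slco1b2 and Abcc2 in hepatocyte-like cells, and Blvrb in erythroid-like cells, globin-rich clusters aside. At P3 Ugt1a1 was highest in hepatocyte-like cells. Blvra had its highest mean in macrophage-like cells at both stages, but was also found at 13.8 to 75.4 CPM in erythroid-like, endothelial-like, monocyte-like and megakaryocyte-like cells. Of all UMIs in named classes at P3, macrophage-like cells held 77.9% of those of Hmox1, 85.2% of Cd163, 79.0% of Abcc3 and 68.5% of Lrp1, and at E16.5 they held 49.6%, 63.0%, 53.0% and 41.3%. The globin-rich clusters set apart from macrophage-like cells held a further 7.29%, 5.22%, 4.86% and 3.16% of these 4 genes' UMIs at P3, and 24.8%, 19.3%, 21.4% and 13.7% at E16.5. Hepatocyte-like cells held 73.7% of the UMIs of Slco1b2 and 56.4% of those of Abcc2 at P3, and 53.4% and 59.5% at E16.5, where globin-rich hepatocyte-like clusters held a further 11.5% and 9.59%. Erythroid-like cells held 81.5% of those of Blvrb at P3 and 69.3% at E16.5.

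**Figure D1:**
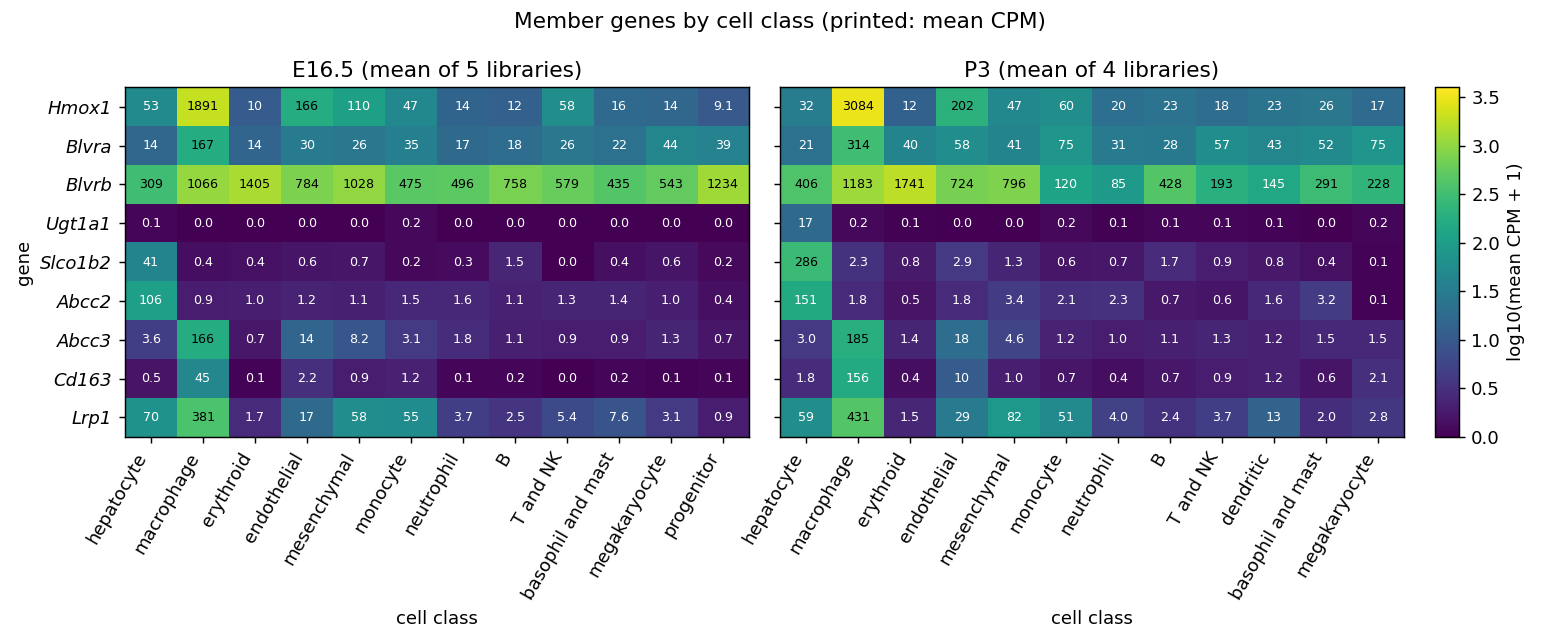
Mean CPM of the 9 genes (rows) in each cell class (columns) at E16.5 (5 libraries) and P3 (4 libraries), with the mean printed and colour on a log10 scale of mean CPM plus 1. Hmox1 reaches 1891 and 3084 CPM in macrophage-like cells, and Slco1b2 and Abcc2 stand out in the hepatocyte column.

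The order of classes was clear at the top and less clear below it. For Hmox1 at E16.5, macrophage-like cells ranged from 1558 to 2392 CPM, above endothelial-like cells (117.2 to 212.0 CPM), whose range overlapped that of mesenchymal-like cells (79.25 to 150.2 CPM). At P3, Hmox1 ranged from 2372 to 3972 CPM in macrophage-like cells and from 156.7 to 257.8 CPM in endothelial-like cells, while mesenchymal-like cells (31.51 to 76.11 CPM), monocyte-like cells (39.22 to 69.44 CPM) and hepatocyte-like cells (5.901 to 66.73 CPM) overlapped. For Lrp1, the macrophage-like range of 329.2 to 451.3 CPM at E16.5 lay above hepatocyte-like cells (52.82 to 80.81 CPM), mesenchymal-like cells (47.26 to 70.76 CPM) and monocyte-like cells (42.62 to 63.71 CPM), which overlapped. Erythroid-like cells ranked first for Blvrb at E16.5, at 1281 to 1513 CPM. That range overlapped that of progenitor-like cells (1063 to 1438 CPM) and lay above that of macrophage-like cells (903.4 to 1210 CPM), which in turn overlapped those of mesenchymal-like cells (895.1 to 1216 CPM) and endothelial-like cells (658.9 to 1069 CPM). At P3, the erythroid-like range of 991.8 to 2070 CPM overlapped the macrophage-like range of 947 to 1340 CPM. For Abcc3, macrophage-like cells (139.0 to 199.2 CPM at E16.5) lay far above endothelial-like cells (10.14 to 17.86 CPM), the next class. Macrophage markers summed to 1174 to 1540 CPM in endothelial-like cells at E16.5 and to 2484 to 2710 CPM at P3. Their part in the levels of Hmox1 and Abcc3 there was not tested.

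To ask how the pathway differed between the fetal and the newborn liver, UMIs were summed per library and class and P3 was compared with E16.5. The edgeR quasi-likelihood test was used, with p-values adjusted by Benjamini-Hochberg over all pairs of class and gene and a threshold of 0.05. A log2 fold change is the level at P3 against that at E16.5 after TMM scaling. Over 10 classes, 23 of the 57 member pairs that passed the filter on low counts were called, 14 higher and 9 lower at P3, beside 44.9% of all pairs tested, 22.5% called higher and 22.4% called lower. The members' share is close to that background. With plain library sizes in place of TMM, the called pairs of all genes went from 22922 higher and 22823 lower to 27960 higher and 16032 lower. In whole libraries, Ugt1a1 aside, 5 of 8 members were called, 3 higher and 2 lower, beside 54.0% of all genes in either direction and 27.6% higher. With plain library sizes 6 of these 8 were called higher and 0 lower, beside 48.1% of all genes higher and 8.05% lower.

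Cd163, the scavenger receptor for haptoglobin-bound hemoglobin, rose in macrophage-like cells. Its levels at E16.5 were 52.33 CPM in Jag1+/+ replicate 1, 42.85 CPM in the shared library, 29.52 CPM in Jag1Ndr/+ replicate 1, and 72.48 and 30.10 CPM in Jag1Ndr/Ndr replicates 1 and 2. At P3 they were 277.0, 152.4, 75.02 and 118.8 CPM in libraries A to D. Every P3 library lay above every E16.5 library, although library C exceeded the highest E16.5 library by little. The edgeR estimate was 1.68 on the log2 scale (SE 0.37; adjusted p = 0.00306), and it lay between 1.20 and 2.07 and was called in all 23 alternatives run. In this class, 3 of 6 members were called, all higher, beside 45.2% of 9742 genes called in either direction and 21.7% called higher. Plain library sizes moved the called genes of the class from 2115 higher and 2289 lower to 2569 and 1776, and their median log2 fold change from 0.01 to 0.12. The summed macrophage markers also differed between the stages, as given above, and their part in the result was not tested. In endothelial-like cells, the mean of Cd163 was 2.17 ± 3.11 CPM at E16.5 (SD, n = 5) and 10.3 ± 8.26 CPM at P3 (SD, n = 4), which did not pass the edgeR test (adjusted p = 0.0529). It was called higher there in 6 of the 15 alternatives that tested it (log2 fold change of 1.51 to 2.25 over all 15). The levels rest on 26 UMIs at E16.5 and 32 at P3, near the limit of the filter on low counts, so those calls carry no weight.

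Lrp1, the receptor for hemopexin-bound heme, which also binds many other ligands, did not pass the test in macrophage-like cells. Its levels were 416.2, 369.1, 329.2, 339.2 and 451.3 CPM in the E16.5 libraries, in the order Jag1+/+ replicate 1, shared, Jag1Ndr/+ replicate 1 and Jag1Ndr/Ndr replicates 1 and 2. At P3 they were 551.8, 526.5, 307.3 and 338.0 CPM in libraries A to D. Libraries A and B lay above all E16.5 libraries, whereas C and D lay within or below them, so the groups overlapped. By edgeR, the log2 change was 0.05, with SE 0.19 and adjusted p = 0.852. In hepatocyte-like cells the mean level of Lrp1 was 69.5 ± 10.3 CPM at E16.5 (SD, n = 5) and 59.4 ± 20.3 CPM at P3 (SD, n = 4), with a log2 fold change of -0.05 (SE 0.21).

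Hmox1, which encodes the rate-limiting enzyme of heme breakdown, rose in macrophage-like cells. In the same order of libraries, its levels were 1768, 2014, 1558, 1723 and 2392 CPM at E16.5, and 3972, 3265, 2726 and 2372 CPM in libraries A to D at P3. Only library D fell within the E16.5 range, just below Jag1Ndr/Ndr replicate 2. At P3 against E16.5 this was a log2 fold change of 0.58 (SE 0.17; edgeR adjusted p = 0.0171). The call rested on library A: without it, the log2 fold change was 0.40 and the adjusted p by edgeR 0.0542. Libraries A and B, whose genotype is unclear, had the highest levels of Hmox1, Cd163 and Lrp1 in this class.

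Outside macrophages, Hmox1 differed by class. In mesenchymal-like cells it fell, from 109.9, 79.25, 89.57, 120.7 and 150.2 CPM in the E16.5 libraries to 76.11, 35.88, 44.94 and 31.51 CPM in libraries A to D. No P3 library reached the lowest E16.5 library, and the log2 fold change came to -1.18 (SE 0.30; edgeR adjusted p = 0.00409), called in all 21 alternatives that tested it. This was the only call among 4 members tested in the class, beside 29.6% of all genes (1232 higher and 1233 lower, or 1313 and 851 with plain library sizes). Macrophage markers summed to 613.6 to 1076 CPM in mesenchymal-like cells at E16.5 and to 189.0 to 625.0 CPM at P3, and their part in the fall was not tested. The class also differed in make-up, its P3 cluster being led by Ins2 and Ins1 and that of E16.5 by Col3a1 and Col1a1. With clusters cut more finely, 128 barcodes led by Ins2 and Ins1 stayed in the class at P3. The part of this difference in the fall was not tested. In B-like cells Hmox1 was at 11.6 ± 3.28 CPM at E16.5 and 22.9 ± 8.76 CPM at P3 (SD, n = 5 and 4 libraries), with a log2 fold change of 0.77 (edgeR adjusted p = 0.0334). That call was lost without any 1 of 6 libraries: Jag1+/+ replicate 1, shared, Jag1Ndr/+ replicate 1, Jag1Ndr/Ndr replicate 1, A or B (log2 fold change from 0.50 to 0.79, adjusted p from 0.0547 to 0.131 by edgeR). Macrophage markers summed to 56.92 to 79.16 CPM in B-like cells at E16.5 and to 143.9 to 279.0 CPM at P3, and their part in the difference was not tested. In hepatocyte-like cells Hmox1 varied more between libraries than between stages, with 95.40, 26.17, 54.54, 23.39 and 63.23 CPM at E16.5 and 43.69, 66.73, 5.901 and 10.76 CPM at P3. The edgeR estimate was -0.30 on the log2 scale (SE 0.49; adjusted p = 0.645). Macrophage markers summed to 510.8 to 977.4 CPM in hepatocyte-like cells at E16.5 and to 245.9 to 593.9 CPM at P3.

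Blvra, the biliverdin reductase of the adult pathway, was the member that rose in the most classes. Of 10 classes tested, 8 were called higher at P3 and the log2 fold change was above 0 in all 10, from 0.36 in B-like cells to 1.15 in basophil- and mast-like cells. In macrophage-like cells the levels were 157.0, 152.3, 163.5, 221.9 and 142.1 CPM at E16.5 and 341.7, 342.8, 309.1 and 264.0 CPM at P3. The groups did not overlap, and the log2 fold change came to 0.77 (SE 0.17; edgeR adjusted p = 0.00298). In erythroid-like cells Blvra went from 11.96, 19.76, 13.81, 9.858 and 13.65 CPM to 31.00, 38.67, 47.44 and 44.71 CPM. Again no libraries overlapped, with a log2 fold change of 0.54 (SE 0.15; edgeR adjusted p = 0.0135). The globin-poor clusters held Blvra at 41.3 CPM at E16.5, outside the class, and at 59.1 CPM at P3, inside it. The log2 fold change was 0.62 with the E16.5 cluster added (adjusted p = 0.00481 by edgeR) and 0.89 with the P3 cluster left out (adjusted p = 0.000789 by edgeR). Among the 8 members tested in erythroid-like cells, 1 was called higher and 3 lower, beside 59.1% of all genes in either direction, 31.0% higher and 28.1% lower. In endothelial-like cells Blvra rose from 30.3 ± 2.69 to 57.8 ± 9.28 CPM (SD, n = 5 and 4), with a log2 fold change of 0.68 (edgeR adjusted p = 0.00734). That was 1 call among 6 members, beside 34.4% of all genes called in either direction and 17.1% called higher (1658 higher and 1680 lower, or 2301 and 804 with plain library sizes). Macrophage markers summed to 1174 to 1540 CPM in endothelial-like cells at E16.5 and to 2484 to 2710 CPM at P3, and their part in the levels of Blvra and Cd163 there was not tested. The calls for Blvra in macrophage-like, erythroid-like and endothelial-like cells held in all 23 alternatives. In erythroid-like cells the log2 fold change lay between 0.48 and 1.53 over these.

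In hepatocyte-like cells Blvra was measured at 12.15, 11.58, 23.62, 13.96 and 11.11 CPM at E16.5 and at 24.91, 25.74, 13.77 and 21.52 CPM at P3. Jag1Ndr/+ replicate 1 and library C stood apart from their groups, which overlapped. The log2 fold change of 0.86 (SE 0.26; edgeR adjusted p = 0.0164) was not called without library A (0.77, adjusted p = 0.0758), with plain library sizes in place of TMM (0.61, adjusted p = 0.0784) or in cells with at least 5000 UMIs (0.67, adjusted p = 0.0642). With globin-rich clusters kept in the class it was 0.22 (adjusted p = 0.454 by edgeR). That setting added cells at E16.5 only (3954 beside 680), so it compares unlike cells and does not test the stage difference.

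Blvrb, the reductase of the fetal bilirubin isomer, fell in neutrophil-like, monocyte-like, megakaryocyte-like and B-like cells. In neutrophil-like cells its mean went from 496 ± 119 CPM at E16.5 (SD, n = 5) to 84.8 ± 31.8 CPM at P3 (SD, n = 4), with a log2 fold change of -2.79 (edgeR adjusted p = 1.4e-05). In monocyte-like cells it went from 475 ± 113 to 120.1 ± 55.5 CPM (log2 fold change -2.18), and in megakaryocyte-like and B-like cells the log2 fold changes were -1.64 and -1.09. In basophil- and mast-like cells Blvrb did not pass the test (-0.65, adjusted p = 0.0525 by edgeR). The globin share of UMIs moved the same way, from 10.35% to 20.72% of UMIs in the neutrophil-like cells of E16.5 libraries to 1.719% to 4.213% at P3, and from 10.39% to 19.48% to 1.968% to 4.512% in monocyte-like cells. Blvrb was highest in erythroid-like cells, and the part of erythroid RNA in the fall was not tested.

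In erythroid-like cells the direction of Blvrb depended on the scaling and on the clusters counted in the class. The levels were 1513, 1422, 1489, 1281 and 1321 CPM at E16.5 and 991.8, 1946, 1955 and 2070 CPM in libraries A to D at P3. Libraries B, C and D lay above and A below every E16.5 library. After TMM scaling the log2 fold change came to -0.81 (SE 0.28; edgeR adjusted p = 0.0313), whereas with plain library sizes it was 0.28 (adjusted p = 0.432 by edgeR). Plain library sizes shifted the median log2 fold change of all genes in this class from 0.04 to 0.95. They also changed the called genes from 3660 higher and 3318 lower to 6269 higher and 855 lower. Globin genes took 47.51% to 75.52% of UMIs in erythroid-like cells at E16.5 and 33.48% to 49.49% at P3, the highest P3 share being that of library A. With the globin-poor P3 cluster left out the log2 fold change of Blvrb was 0.10 (adjusted p = 0.783 by edgeR), and with its E16.5 counterpart added it was -0.48 (adjusted p = 0.111 by edgeR). The call was also lost without any 1 of 6 libraries: Jag1+/+ replicate 1, Jag1Ndr/+ replicate 1, Jag1Ndr/Ndr replicate 1, A, B or C (adjusted p from 0.0554 to 0.0846, log2 fold change from -0.85 to -0.67).

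Blvrb did not differ between the stages in macrophage-like cells beyond the spread between libraries, at 1032, 903.4, 1210, 1179 and 1008 CPM and 947.0, 1210, 1340 and 1235 CPM (log2 fold change -0.01, SE 0.16). In hepatocyte-like cells it was measured at 311.9, 259.1, 372.3, 353.1 and 250.02 CPM at E16.5 and at 217.6, 453.8, 478.0 and 475.0 CPM at P3. Libraries B to D were higher than all E16.5 libraries and A was lower. The log2 fold change of 0.62 (SE 0.22; edgeR adjusted p = 0.0347) was not called without Jag1+/+ replicate 1, the shared library, Jag1Ndr/Ndr replicate 2 or library B, C or D, at 0.51 to 0.61 (adjusted p from 0.0674 to 0.105 by edgeR). It was also lost with clusters cut more finely (0.27, adjusted p = 0.364), with plain library sizes (0.36, adjusted p = 0.206) and in cells with at least 5000 UMIs (0.44, adjusted p = 0.133). With the globin-rich clusters kept it was -1.45 (adjusted p = 0.00128 by edgeR). As for Blvra, that setting added cells at E16.5 only and does not test the stage difference.

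**Figure D2:**
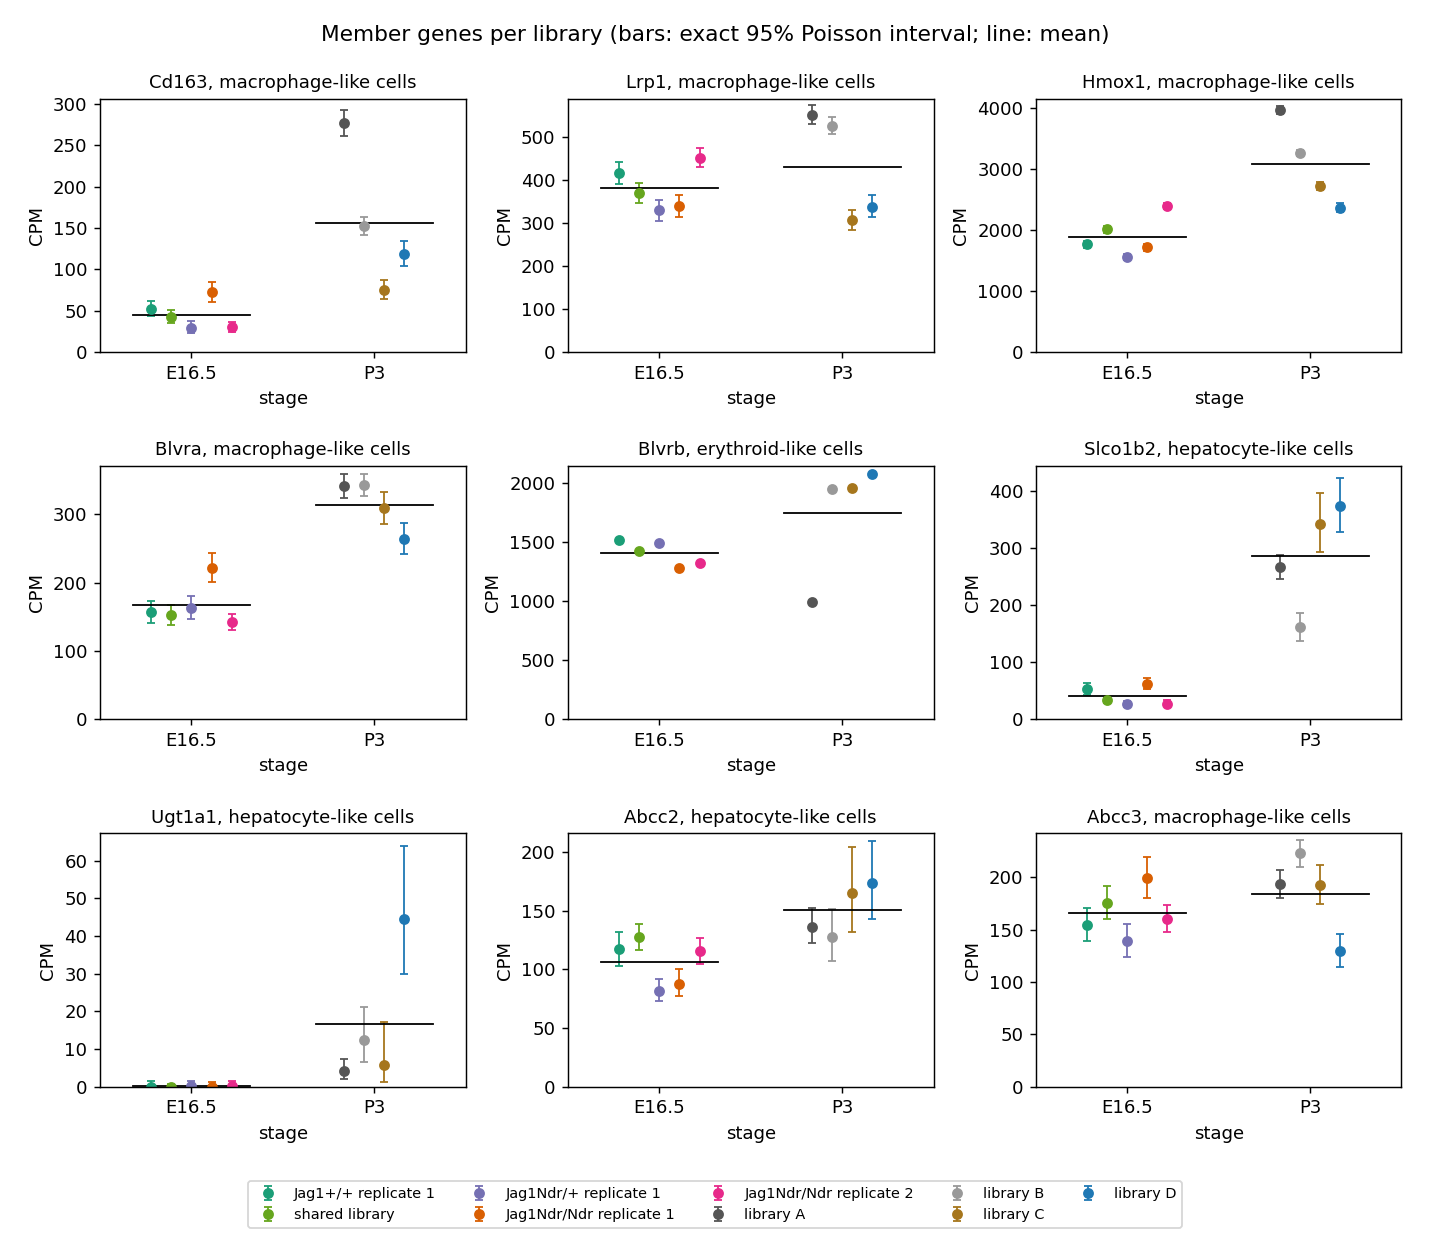
CPM of each gene in 1 cell class per panel, for the 5 libraries of E16.5 and the 4 of P3; points are libraries, bars exact 95% Poisson intervals (counting error only) and lines group means. Cd163 and Blvra in macrophage-like cells and Slco1b2 in hepatocyte-like cells show no overlap between the stages, and library A stands apart for Blvrb in erythroid-like cells.

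Slco1b2, which takes up bilirubin and other organic anions from blood, had the largest change of the 6 members tested in hepatocyte-like cells. Its levels were 52.65, 33.81, 26.71, 62.25 and 27.78 CPM at E16.5 and 266.2, 161.1, 342.3 and 373.6 CPM in libraries A to D at P3. The lowest P3 library, at 161.1 CPM, was well above the highest E16.5 library, at 62.25 CPM. By edgeR, the log2 change was 3.06, with SE 0.29 and adjusted p = 3.62e-06. It lay between 2.66 and 3.44 in all 23 alternatives, called in each. In this class 4 of 6 members were called, all higher, beside 41.5% of 9963 genes called in either direction and 21.2% called higher. With plain library sizes the median of all genes in this class was -0.28 in place of -0.03, and the called genes were 1397 higher and 3005 lower in place of 2112 and 2020. Erythroid-like cells, taken as the background for a gene of hepatocytes, had 0.173 to 0.752 CPM at E16.5 and 0.388 to 1.46 CPM at P3. Hepatocyte-like cells differed in depth between the stages, with library medians of 18233 to 27668 UMIs per cell at E16.5 and 2452 to 6635 at P3. In cells with at least 5000 UMIs the log2 fold change was 3.27.

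Ugt1a1, the only enzyme that conjugates bilirubin to a relevant extent, was nearly undetected before birth. Hepatocyte-like cells gave 0, 0, 1, 0 and 1 UMIs in the E16.5 libraries and 10, 13, 3 and 29 UMIs in libraries A to D at P3. These are 0, 0, 0.281, 0 and 0.265 CPM against 4.08, 12.4, 5.90 and 44.6 CPM, and each library at 0 allows up to 0.695 to 1.35 CPM (3 counts of its total). Of the 9 UMIs of Ugt1a1 in all named classes at E16.5, 6 were in monocyte-like cells. In hepatocyte-like cells every P3 library lay above every E16.5 library, and the P3 libraries differed widely among themselves, library D being the highest. Pooled over libraries, the level was 97.6 times as high at P3, with an exact 95% interval for counting error of 25.8 to 826. Library D gave 29 of the 55 UMIs at P3, and without it the level of Ugt1a1 was 53.7 times as high (13.4 to 466). The gene did not pass the filter on low counts in any class. With no such filter its log2 fold change in hepatocyte-like cells was 6.57 (SE 0.83), a value that depends on the prior count. Nearly all its UMIs in these cells came from the P3 libraries, where it is high, so the p-value is not given. In whole libraries Ugt1a1 was at 0.00931 ± 0.00388 CPM at E16.5 (SD, n = 5) and 0.238 ± 0.201 CPM at P3 (SD, n = 4). There it reached the filter on low counts only through the P3 libraries, where it is high, so that its test in whole libraries is not given. Erythroid-like cells, at 0.0456 to 0.0946 CPM at P3, lay far below hepatocyte-like cells. The 8 other Ugt1a genes, which share the last exons with Ugt1a1, gave 72 UMIs together in hepatocyte-like cells at E16.5 and 26 at P3, or 4.36 and 5.59 CPM of the pooled UMIs. Software version and gene list differed between the stages, and their part in the difference of Ugt1a1 was not tested.

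Abcc2, the canalicular exporter of conjugated bilirubin, was present in hepatocyte-like cells at both stages. Its levels were 117.0, 127.1, 81.82, 87.90 and 115.4 CPM at E16.5 and 136.4, 127.7, 165.2 and 173.7 CPM at P3. The groups did not overlap, although the highest E16.5 library and library B were almost level. At P3 against E16.5 this was a log2 fold change of 0.73 (SE 0.17; edgeR adjusted p = 0.00397). With clusters cut more finely (Leiden resolution 2) it was 0.29 (adjusted p = 0.218 by edgeR). In whole libraries Abcc2 fell, from 3.41 ± 1.45 to 2.44 ± 0.924 CPM (SD, n = 5 and 4), with a log2 fold change of -1.05 (edgeR adjusted p = 0.00604) that was not called with plain library sizes (-0.50, adjusted p = 0.214). In sums over whole libraries, fewer cells of a type and less RNA per cell cannot be told apart. Plain library sizes moved the median of all genes there from 0.02 to 0.61, and the called genes from 4000 higher and 3835 lower to 6971 and 1167.

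Abcc3, which returns conjugates to the blood, was a gene of macrophage-like cells in these libraries. In hepatocyte-like cells its mean was 3.63 ± 2.06 CPM at E16.5 (SD, n = 5) and 3.00 ± 1.08 CPM at P3 (SD, n = 4), and it did not pass the filter on low counts between the stages. In macrophage-like cells the levels were 154.1, 175.7, 139.0, 199.2 and 160.6 CPM at E16.5 and 193.3, 222.9, 192.5 and 129.8 CPM at P3. Library B lay above and library D below all E16.5 libraries. The edgeR estimate was 0.02 on the log2 scale (SE 0.16; adjusted p = 0.928).

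Some calls between the stages concerned low levels. In erythroid-like cells Abcc2 went from 1.01 ± 0.197 to 0.543 ± 0.501 CPM (log2 fold change -1.80) and Lrp1 from 1.70 ± 0.369 to 1.46 ± 0.374 CPM (log2 fold change -1.23), both called lower (adjusted p = 0.0232 and 0.00213 by edgeR). Neither was called with plain library sizes, at -0.88 and -0.25, or with the globin-poor P3 cluster left out, at -0.54 and -0.21. With the latter setting Abcc3 (1.17) was called higher in erythroid-like cells (adjusted p = 0.0354 by edgeR). Cd163 was not called there (1.31), but was called higher in 7 of 21 alternatives (log2 fold change of 0.67 to 2.29 over all 21). In this class it reached the filter on low counts only through the P3 libraries, where it is high. Its p-values are therefore not given, and those calls carry no weight. In neutrophil-like cells Abcc3 was called lower, from 1.83 ± 1.12 to 0.965 ± 0.242 CPM (SD, n = 5 and 4). In whole libraries Cd163, Blvra and Hmox1 were called higher, with log2 fold changes of 2.08, 0.66 and 0.70, and Blvrb lower at -0.88. The calls of Hmox1 and Blvrb there were each lost without any 1 of several libraries, library A and library B among them. That of Blvrb was also lost with plain library sizes, under which 0 members were called lower in whole libraries. Over 17 alternatives its log2 fold change lay between -1.05 and -0.19. Slco1b2 did not pass there (0.77, adjusted p = 0.0512 by edgeR), but was called higher in 7 of 17 alternatives (log2 fold change of 0.46 to 1.36 over all 17, adjusted p from 0.00267 to 0.188).

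**Figure D3:**
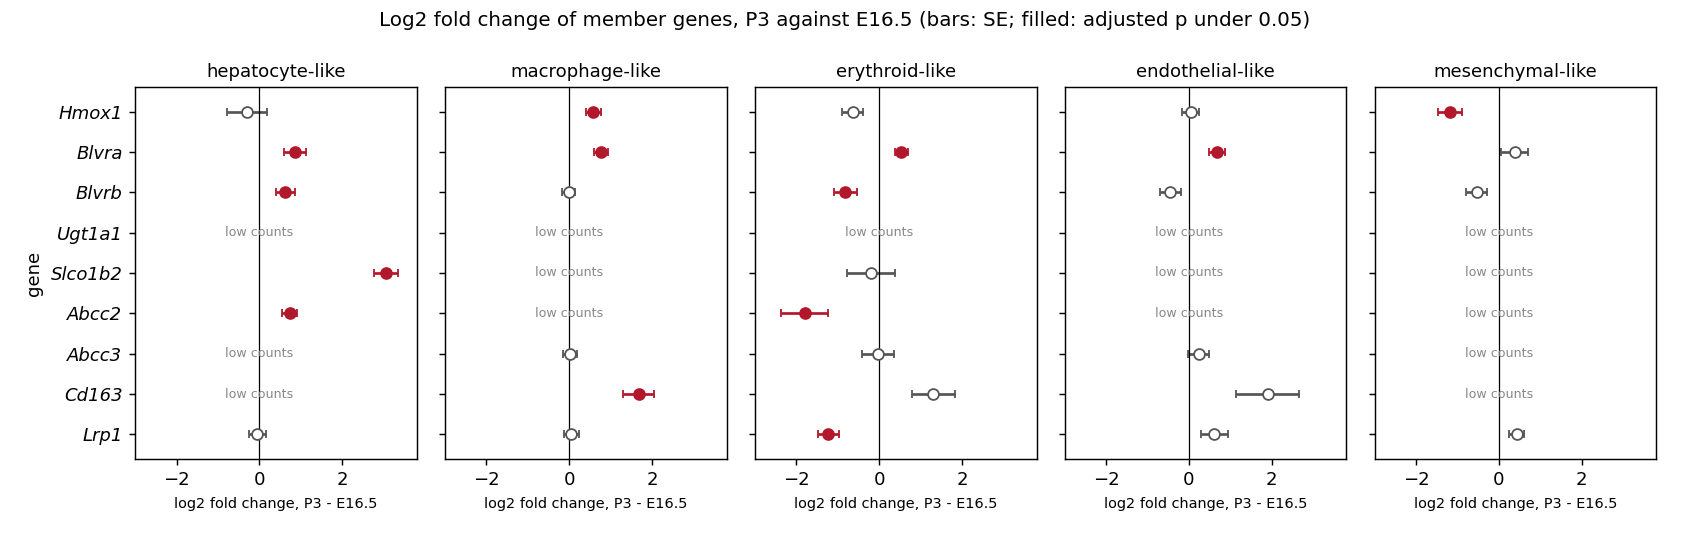
Log2 fold change of each gene between P3 and E16.5 in 5 cell classes, with SE bars; filled points have an adjusted p under 0.05 by edgeR and genes under the filter on low counts are named as such. Slco1b2 in hepatocyte-like cells reaches 3.06 and Cd163 in macrophage-like cells 1.68.

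The genotypes were compared at E16.5, with the 2 Jag1Ndr/Ndr libraries against the 3 others, because the shared library bears both other labels. None of 61 member pairs over 11 classes was called by edgeR, beside 0% of 118977 pairs of all genes. DESeq2 called 0 members and 19 of all pairs. At an unadjusted p under 0.05 there were 2 member pairs and 2088 of all pairs. Over whole libraries 0 of 8 members and 0 of 16262 genes were called by edgeR, with 0 members and 166 genes at an unadjusted p under 0.05, and DESeq2 called 0 members and 5 genes. Because p-values rest on 2 and 3 libraries, a difference that was not called is not shown to be absent.

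Hmox1 in macrophage-like cells was at 2058 ± 473 CPM in Jag1Ndr/Ndr (SD, n = 2) and 1780 ± 228 CPM in the others (SD, n = 3), with a log2 fold change of 0.20 (SE 0.19). Cd163 was at 51.3 ± 30.0 and 41.6 ± 11.5 CPM, and Blvra at 182 ± 56.4 and 158 ± 5.61 CPM, both with overlapping groups. In hepatocyte-like cells Slco1b2 was at 45.01 ± 24.4 CPM in Jag1Ndr/Ndr (SD, n = 2) and 37.7 ± 13.4 CPM in the others (SD, n = 3), with a log2 fold change of 0.29 (SE 0.34). Abcc2 was at 102 ± 19.4 and 109 ± 23.8 CPM (log2 fold change -0.04, SE 0.23). Abcc3 in these cells was at 2.45 ± 0.270 and 4.42 ± 2.47 CPM, in the same order, with a log2 fold change of -0.71 (SE 0.62). The pairs with an unadjusted p under 0.05 were both of Hmox1. In mesenchymal-like cells it was at 120.7 and 150.2 CPM in Jag1Ndr/Ndr and at 109.9, 79.25 and 89.57 CPM in the others. There its log2 fold change came to 0.58 (SE 0.25; edgeR adjusted p = 1). The sums of macrophage markers in this class are given above, and their part in these levels was not tested. In neutrophil-like cells the log2 fold change of Hmox1 came to 0.44 (SE 0.19; edgeR adjusted p = 1).

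**Figure D4:**
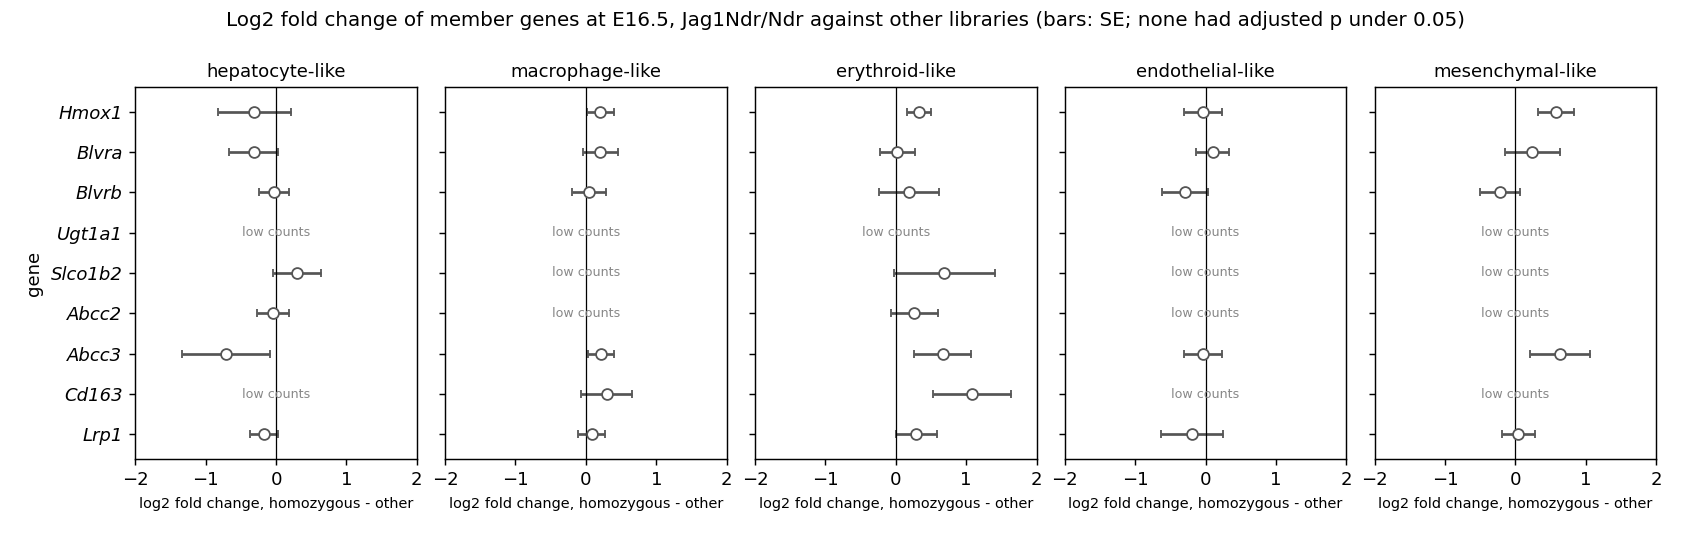
Log2 fold change of each gene at E16.5 between the 2 Jag1Ndr/Ndr libraries and the 3 others in 5 cell classes, with SE bars. All points are open because none had an adjusted p under 0.05 by edgeR.

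At P3, only libraries C (labelled Jag1Ndr/Ndr, a group of pups picked by jaundice) and D (labelled Jag1Ndr/+) have 1 genotype label each. The label of C is uncertain, as given above. Their levels are given with exact 95% Poisson intervals, which cover counting error only, and no test. These levels count 1 row per gene symbol in the total and so differ slightly from those above. Pairs of member and class with at least 10 UMIs in both libraries together were counted. For 10 of 31 such pairs the intervals did not overlap, beside 4.33% to 39.1% of all genes, depending on the class. Relative to the level, intervals narrow as UMIs rise, and the shares of all genes were not matched to the members for UMIs. They are therefore no like-for-like background. In hepatocyte-like cells the intervals were apart for 1 of 7 members, beside 5.15% of all genes. That member was Ugt1a1, at 5.90 CPM (1.22 to 17.3) in C, from 3 UMIs, and 44.6 CPM (29.9 to 64.1) in D, from 29 UMIs. Slco1b2 was at 342 CPM (293 to 397) in C and 374 CPM (328 to 424) in D, and Abcc2 at 165 CPM (132 to 205) and 174 CPM (143 to 209). Libraries A and B, at 4.08 and 12.4 CPM of Ugt1a1, were also below the interval of D.

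In macrophage-like cells 4 of 6 members had intervals apart, beside 12.7% of all genes. These 6 members held 166 to 6032 UMIs in C, and the share of all genes was not matched for UMIs. An excess among the members is therefore not shown. Hmox1 (2727 CPM, 2659 to 2797, and 2373 CPM, 2307 to 2440), Blvrb (1340 and 1236 CPM) and Abcc3 (193 CPM, 175 to 212, and 130 CPM, 115 to 146) were higher in C. Cd163 was higher in D, at 119 CPM (104 to 135) against 75.0 CPM (64.1 to 87.4). In endothelial-like cells 2 of 6 members were apart, beside 6.87% of all genes, namely Hmox1 (258 CPM in C and 182 CPM in D) and Blvrb (644 and 855 CPM). Mesenchymal-like cells had 0 of 4 apart, beside 4.33%, and erythroid-like cells 3 of 8, beside 39.1%. With 1 library each, genotype, animal and library cannot be told apart.

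**Figure D5:**
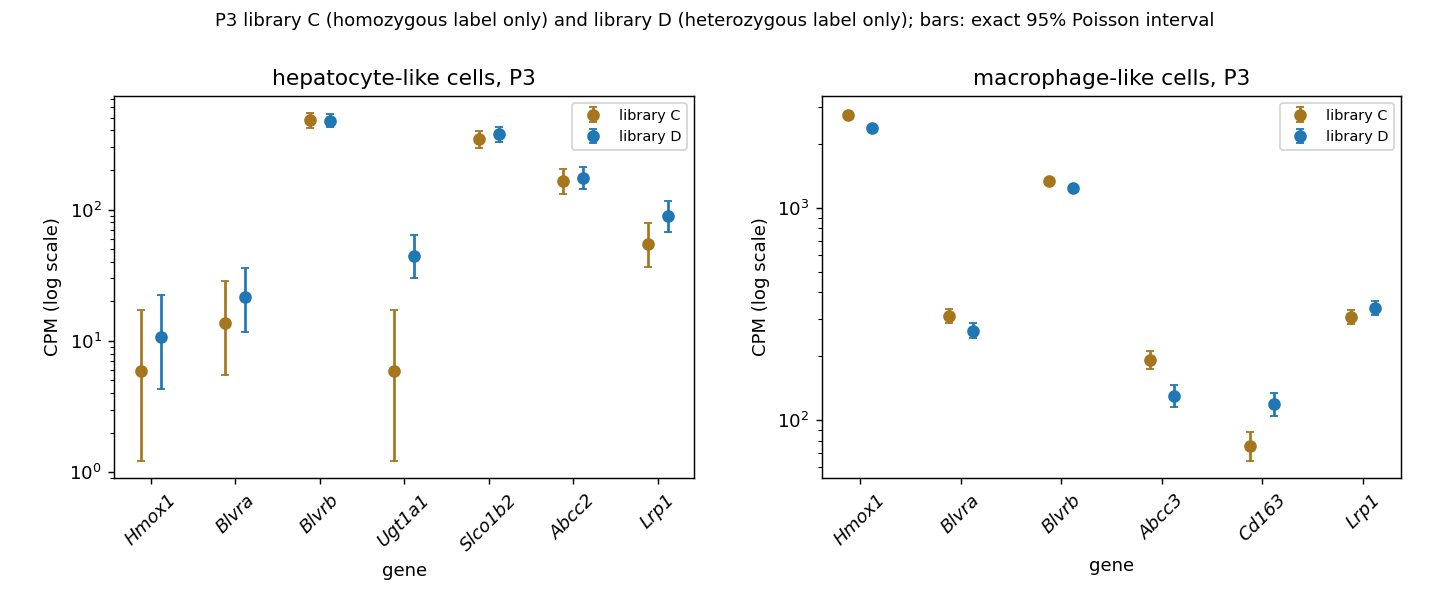
CPM (log axis) of the genes with at least 10 UMIs in hepatocyte-like and macrophage-like cells of P3 libraries C and D, with exact 95% Poisson intervals. The intervals for Ugt1a1 in hepatocyte-like cells lie apart, at 5.90 and 44.6 CPM.

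Other genes of the pathway were read from 4 lists. Of 10 genes of heme and iron handling in hepatocyte-like cells, all passed the filter, 7 were called higher and 2 lower at P3, with a median log2 fold change of 1.23 beside -0.03 for all genes and 41.5% called. Hp, which encodes haptoglobin, the carrier that Cd163 recognises, went from 154 ± 63.8 to 4180.1 ± 1065 CPM (log2 fold change 5.00). Hpx, which encodes the heme carrier hemopexin, went from 794 ± 82.2 to 3033 ± 506 CPM (2.16). Por, the electron donor of heme oxygenase, went from 74.0 ± 13.9 to 210.0 ± 76.2 CPM (1.73), and Fth1, the ferritin heavy chain, rose by a log2 fold change of 1.35. The call of Fth1 was lost in 1 of 23 alternatives, over which its log2 fold change lay between 0.24 and 1.45. All SDs are over 5 libraries at E16.5 and 4 at P3. Adjusted p-values by edgeR for these 4 genes were at most 5.42e-05.

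Of the 14 genes of conjugation and intracellular binding, 5 passed the filter in hepatocyte-like cells, with 2 called higher and 2 lower. The share of all genes in this class was 21.2% called higher and 20.3% called lower, also for the next lists. Ugdh, which makes the glucuronic acid donor, fell from 36.7 ± 13.04 to 12.2 ± 6.32 CPM (log2 fold change -1.14), and Ugp2, which acts a step earlier, was called lower (-0.51). The glutathione transferases Gsta4 (0.97) and Gsta3 (0.71) were called higher. Of 23 alternatives, the call was lost in 2 for Ugdh, in 5 for Ugp2, in 5 for Gsta4 and in 9 for Gsta3. Of 9 transporters, 5 passed, with 3 called higher and 1 lower. The bile acid importer Slc10a1 rose from 88.2 ± 20.9 to 407 ± 67.2 CPM (2.45), the phospholipid exporter Abcb4 from 38.4 ± 5.54 to 163 ± 26.0 CPM (2.32) and the bile salt exporter Abcb11 from 56.9 ± 6.42 to 149 ± 23.0 CPM (1.61). Abcg2, an exporter of porphyrins and other substrates, was called lower (-0.85). Of 13 regulators, all passed and 7 were called higher and 0 lower, with a median of 0.56. Nr1i3, the nuclear receptor CAR, which is known to act on Ugt1a1, rose from 3.06 ± 1.81 to 86.8 ± 21.3 CPM (log2 fold change 4.89). It is counted among the 7, but reached the filter on low counts only through the P3 libraries, where it is high. Its p-value is therefore not given, and its call carries no weight. Ppara (1.26), Nr1h4, the bile acid receptor (1.19), and Rxra (1.12) were also called higher.

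In macrophage-like cells, 6 of 9 genes of heme and iron handling that passed the filter were called higher and 1 lower, beside 45.2% of all genes in either direction and 21.7% higher, with a median of 0.51 beside 0.01 for all genes. Slc48a1, which carries heme out of the phagolysosome, went from 225 ± 17.7 to 396 ± 13.9 CPM (log2 fold change 0.68), and Hmox2, the constitutive heme oxygenase, from 77.1 ± 10.8 to 165 ± 38.6 CPM (0.95). Hpx (2.43) and Hp (1.28) were called higher at 34.8 and 75.3 CPM at P3. The call of Hp was lost in 1 of 23 alternatives, over which its log2 fold change lay between 0.48 and 3.27. Hpx and Hp are both plasma protein genes of hepatocytes, and summed hepatocyte markers in this class were at 1530 to 2057 CPM at E16.5 and 1424 to 2949 CPM at P3. Their part in the result was not tested. Among 7 regulators, Keap1 (1.20) and Rxra (0.88) were called higher and Mafk, a partner of Bach1 and Nfe2l2 (-0.998), lower. Of 4 transporters, Abcg2 (-2.16) and Abcb4 (-0.87) were called lower, and the call of Abcb4 was lost in 1 of 23 alternatives. Of 5 genes of conjugation and intracellular binding, Ugp2 (-0.53) was called lower.

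In endothelial-like cells 3 of 9 genes of heme and iron handling were called higher and 1 lower, beside 34.4% of all genes in either direction and 17.1% higher. With plain library sizes 7 were higher and 0 lower, beside 23.7% of all genes higher and 8.29% lower. In mesenchymal-like cells 3 of 8 were called higher and 1 lower, beside 29.6% in either direction and 14.8% higher. Slc40a1, the iron exporter ferroportin, fell in mesenchymal-like cells from 122 ± 25.9 to 58.1 ± 12.2 CPM (log2 fold change -1.09). Slc40a1 is itself one of the macrophage markers, whose sums in this class are given above, and their part in the fall was not tested. The part of the class's different make-up at the 2 stages, also given above, was not tested either. In the same class Hp (2.65), Por (1.16) and Slc48a1 (0.52) were called higher, but the call of Por was lost without library A (0.64) and that of Slc48a1 in 13 of 21 alternatives. Among regulators in endothelial-like cells, Keap1 (0.87) and Rxra (0.75) were called higher and Mafk (-0.62) and Bach1 (-0.55), which encodes a repressor of Hmox1, lower. The call of Mafk was lost in 10 of 23 alternatives, and that of Bach1 without library C (-0.44) and with plain library sizes (-0.34). Abcg2 was called lower in endothelial-like (-0.98) and mesenchymal-like cells (-1.33). In erythroid-like cells 9 of 13 regulators were called lower and 2 higher after TMM scaling, beside 59.1% of all genes in either direction and 28.1% lower. With plain library sizes 4 were lower and 4 higher, beside 7.24% of all genes lower and 53.1% higher. With the globin-poor P3 cluster left out 5 were lower and 3 higher. With its E16.5 counterpart added, 7 of 12 were lower and 2 higher. For these settings of the clusters the shares of all genes are not given. Keap1 (1.29), Nfe2l2 (0.64) and Hmox2 (1.23) were called higher there, and Mafk (-1.17) was called lower, but not with plain library sizes (-0.26, adjusted p = 0.584 by edgeR) or with the P3 cluster left out (-0.21). At E16.5, 0 of the genes of the 4 lists that passed the filter was called between genotypes in these 5 classes by edgeR.

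Over the 24 means of classes and stages, the genes whose log2(CPM + 1) followed each member most closely were named from 9900 genes that reached 20 CPM in some class. These correlations describe class means that share libraries and depth, and carry no test. For Hmox1 they were Cd5l (Pearson's r = 0.979), Il18bp (0.978) and C1qc (0.974). For Abcc3 they were Timd4 (0.981), Spic (0.977) and Il18bp (0.974), and for Cd163 Kcnj10 (0.979), Ms4a7 (0.972) and Cd209g (0.970). Those of Lrp1 included Abca9 (0.943) and Pgap1 (0.933). Slco1b2 was closest to Ces1c (0.993), Asgr1 (0.991) and Aspdh (0.986), and Abcc2 to Stra6l (0.966), Gpld1 (0.965) and Cyp7a1 (0.963). Abhd12 (0.913) and Cndp2 (0.908) were among those closest to Blvra, and Blvrb was closest to March5 (0.913), Slc38a5 (0.907) and Cldn13 (0.899). Among the members, Hmox1 and Abcc3 (0.957), Abcc3 and Cd163 (0.938), and Slco1b2 and Abcc2 (0.930) were the most alike, while Blvra and Blvrb had r = 0.03. Ugt1a1 stayed under 20 CPM in every class mean and was not included.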

How the data were processed

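The deposited matrices hold raw UMI counts per gene and barcode, with no normalization. Their headers name software versions 3.0.2 (P3) and 3.1.0 (E16.5), whereas the submitters' processing notes list Cell Ranger 2.1.1, Seurat, R 4.1.2 and mm10; which versions made these matrices, and how reads were assigned, is not given in the sources used here. The member genes and the other gene lists were chosen with earlier results of these data known.

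Barcodes were kept from 1000 UMIs upward and up to a mitochondrial share of 15%, and doublets were called per library with Scrublet's automatic threshold (9.85% to 13.4% at E16.5, 4.11% to 9.50% at P3) and removed. Each stage was clustered separately (scanpy 1.11.5, 2000 variable genes without the members, 30 components, 15 neighbours, Leiden resolution 1). Class names were rebuilt from marker lists, since no annotation by the authors was used. Counts were summed per library and class with at least 20 cells and tested with edgeR 4.0.16 (R 4.3.3) under TMM scaling and its filter on low counts, without covariates, and checked on simulated counts; DESeq2 1.42.0 was an alternative. P-values measure the spread between libraries. The SE given with an edgeR log2 fold change was derived, as its absolute value divided by the square root of the test's F statistic. Intervals and limits for 0 counts cover counting error only. Every member is described, the other genes are the up to 4 called genes of each list and class with the largest change among those with a mean of at least 20 CPM in the class, and the 3 most alike genes are given per member, except that some items are not reported here.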

Additional observations from a re-analysis of the deposited data

Results flagged for a closer look

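Of 69 groups of 4 or 5 libraries, 6 held a library far from the others by Dixon's criterion, where chance gives about 1 in 20. At P3, library A was low for Blvrb in erythroid-like cells (991.8 CPM, the nearest other at 1946 CPM) and in hepatocyte-like cells (217.6 CPM, the nearest at 453.8 CPM). At E16.5, Jag1Ndr/+ replicate 1 was high for Blvra in hepatocyte-like cells (23.62 CPM, the nearest at 13.96 CPM) and for Blvrb in endothelial-like cells (1069 CPM, the nearest at 775.7 CPM). Jag1Ndr/Ndr replicate 1 was high for Blvra in macrophage-like cells (221.9 CPM, the nearest at 163.5 CPM). The shared library was high for Abcc2 in erythroid-like cells (1.355 CPM, the nearest at 0.956 CPM).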

How the results depend on the processing

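The count of member pairs called between the stages within classes was 23 and lay between 20 and 33 over all alternatives, and between 20 and 26 when 1 library was left out. Over whole libraries, Ugt1a1 aside, the count was 5 (3 to 6, with 3 without Jag1+/+ replicate 1, Jag1Ndr/+ replicate 1 or library A). For libraries C and D it was 10 (8 to 11), to be read beside the shares of all genes given above, which were not matched for UMIs. With no filter on low counts, 1 member pair was called between genotypes, beside 562 of 192688 pairs of all genes. It was Cd163 in monocyte-like cells (log2 fold change 2.42, adjusted p = 0.0238 by edgeR), from 41 UMIs over the 5 libraries of E16.5. With plain library sizes the direction between the stages turned in erythroid-like cells for Abcc3 (1.00), Blvrb (0.28), Fth1 (0.28) and Slc40a1 (0.35). With globin-rich clusters kept it turned for Blvrb in hepatocyte-like cells (-1.45), but that setting added hepatocyte-like cells at E16.5 only. It therefore compares unlike cells and does not test that stage difference. The globin-poor P3 cluster was also left out of the erythroid-like class, a choice made after the data were seen. The direction then turned there for Abcc3 (1.17) and Blvrb (0.10). The cause was not tested. Those turns are of values called in at least 1 of the fits compared. Of the other values for single genes, 2582 stayed on the same side of the threshold, among them 119 uncalled values with the other sign, 137 lost their call and 32 gained one. Besides the gains given above, Hmox1 in erythroid-like and Lrp1 in endothelial-like cells gained a call in 3 of 23 alternatives each, and Blvrb gained one in 1 of 23 in macrophage-like and 2 of 21 in mesenchymal-like cells. Over whole libraries Abcc3 gained a call in 2 of 17 alternatives and Lrp1 in 1 of 17. With the replicate number as a block, 22 member pairs were called between the stages within classes and 5 over whole libraries without Ugt1a1. Those counts compare settings and are given without a share of all genes. Between genotypes 0 were called in either, beside 7 of 118977 pairs of all genes within classes. The labels do not say that a number pairs the libraries. Deviations of Jag1Ndr/Ndr replicate 1 correlated with those of Jag1+/+ replicate 1 (0.274) and Jag1Ndr/+ replicate 1 (0.238), and those of Jag1Ndr/Ndr replicate 2 with the shared library (0.438). Hepatocyte-like cells, 70 to 379 per library at P3, limit what can be seen of genes at few UMIs, such as Ugt1a1.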

Other observations

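Within the erythroid-like class at P3, Blvrb differed between clusters. It was at 3023 CPM in a cluster with 39.95% globin UMIs, at 2301 CPM in one with 60.7% and at 452 CPM in one with 88.47%. Blvra went from 84.09 CPM in a cluster with 9.807% globin UMIs to 2.609 CPM in the cluster with 88.47%. The globin-rich clusters that were set apart from hepatocyte-like cells at E16.5 held Slco1b2 at 7.58 ± 3.37 CPM, Abcc2 at 15.5 ± 4.59 CPM and Blvrb at 1409 ± 141 CPM (SD, n = 5). Those set apart from macrophage-like cells held Hmox1 at 559.5 ± 112.5 CPM at E16.5 (SD, n = 5) and 536.7 ± 152.8 CPM at P3 (SD, n = 4).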
